A study of Homo sapiens with 9 samples.

Results

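The genes of the response to low oxygen and of glycolysis were followed in MCF10A breast epithelial cells after knockdown of EHMT2, which encodes the histone methyltransferase G9a. The 40 genes were a fixed list of names, matched by gene ID in the count tables, out of 60308 gene IDs. They comprise 4 transporters of glucose and lactate, 9 enzymes of upper and 8 of lower glycolysis, 3 kinases that regulate the pathway, 4 genes of oxygen sensing and 12 other targets of hypoxia. All 40 passed the filter on low counts, which left 18435 genes for testing.

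The 9 libraries came from 1 cell line, MCF10A, whose immortalised cells derive from human breast epithelium. Per the labels, every culture, the controls included, carried ectopic MYC (construct pBABE-hygro-MYC) and a mutant PI3K (pMN-IRES-GFP-PI3KH1047R). A further construct, induced by 2 µg/mL doxycycline over 72 hours in all groups, held a scrambled hairpin (shSCR), or hairpin shG9a_1 or shG9a_4 against EHMT2, with 3 replicates each. The medium held horse serum, insulin, epidermal growth factor, hydrocortisone and cholera toxin in all groups, the RNA came from subconfluent cells, and the labels name no treatment with low oxygen. The replicates are called biological in the design text, and no label names a culture, passage or day, so p-values measure the spread between these libraries.

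In cells with enough oxygen, prolyl hydroxylases of the EGLN family mark the HIF alpha subunits, which are then bound by VHL and degraded. When oxygen is low the alpha subunits escape this, pair with ARNT and bind short DNA elements near their target genes, among them glucose transporters, most glycolytic enzymes and the angiogenic factor VEGFA. MYC and PI3K signalling are also known to raise glucose uptake and glycolysis. G9a places repressive methyl marks on histone H3 lysine 9, so the comparison asks how these genes stood after loss of EHMT2 mRNA in cells that hold both oncogenes.

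Each library held 53065611 to 76958831 reads in genes, and 26759 to 28346 genes had a read. EHMT2 itself was lower in all 6 knockdown libraries (17.6 to 33.5 CPM, reads scaled to the library's TMM-adjusted total) than in the 3 shSCR libraries (45.2 to 51.1 CPM). Its log2 fold change was −1.21 in shG9a_1 (edgeR, adjusted p = 0.00766) and −0.61 in shG9a_4 (adjusted p = 0.259), so the second hairpin did not pass the threshold of 0.05 over all genes. The labelled cell type matched its markers in part: KRT5 stood at 1842 to 3211 CPM, CDH1 at 13.1 to 48.0 CPM, and KRT19 at no more than 0.165 CPM. Of 6 blood markers 5, and of the 4 endothelial markers found 2, stayed below 1 CPM in every library. Among 8 fibroblast markers, COL1A2, COL3A1, PDGFRA, PDGFRB and THY1 stayed below 1 CPM, while DCN stood at 135 to 413 CPM.

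The levels of the 40 genes spanned more than 3 orders of magnitude per length. GAPDH, the dehydrogenase in the middle of the pathway, was highest, at 1499 ± 82.2 CPM per kb of exon in shSCR (SD, n = 3). ENO1, the main enolase, followed at 677 ± 7.34 CPM per kb, and LDHB and LDHA, the subunits of lactate dehydrogenase, at 429.8 ± 8.38 and 313 ± 19.6 CPM per kb. The order of these subunits rests on the lengths used, 2.98 kb of merged exons for LDHB and 6.21 kb for LDHA. Before division by length LDHA was the higher, at a mean of 1942 CPM in shSCR beside 1282 for LDHB. TPI1, PKM and ALDOA, at 282 ± 17.2, 240.2 ± 8.21 and 225 ± 17.9 CPM per kb, lay closer together, and the last pair did not differ beyond their spread.

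HIF1A, which encodes the best known HIF alpha subunit, stood at 159 ± 19.1 CPM per kb in shSCR, and its range of mean ± SD overlapped with that of PGK1 (177 ± 12.7). EPAS1, which encodes the related HIF-2 alpha, was 7.96-fold below HIF1A per kb by the ratio within libraries. EGLN1, the main oxygen-sensing hydroxylase, was at 25.1 ± 2.59 CPM per kb and its relative EGLN3 at 0.720 ± 0.154. Some genes that rise strongly in low oxygen stood near the bottom of the scale, with CA9, a membrane carbonic anhydrase, at 1.53 ± 0.664 and ANKRD37 at 1.08 ± 0.0457 CPM per kb. Other hypoxia targets stood higher, among them ANGPTL4 (61.1 ± 4.86), P4HA1 (44.8 ± 4.30), BNIP3 (14.2 ± 2.27) and VEGFA (9.62 ± 0.885). ENO2, the neuronal enolase (0.345 ± 0.101), and SLC2A3, a high-affinity glucose transporter (0.596 ± 0.591), were the lowest of the 40.

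**Figure D1:**
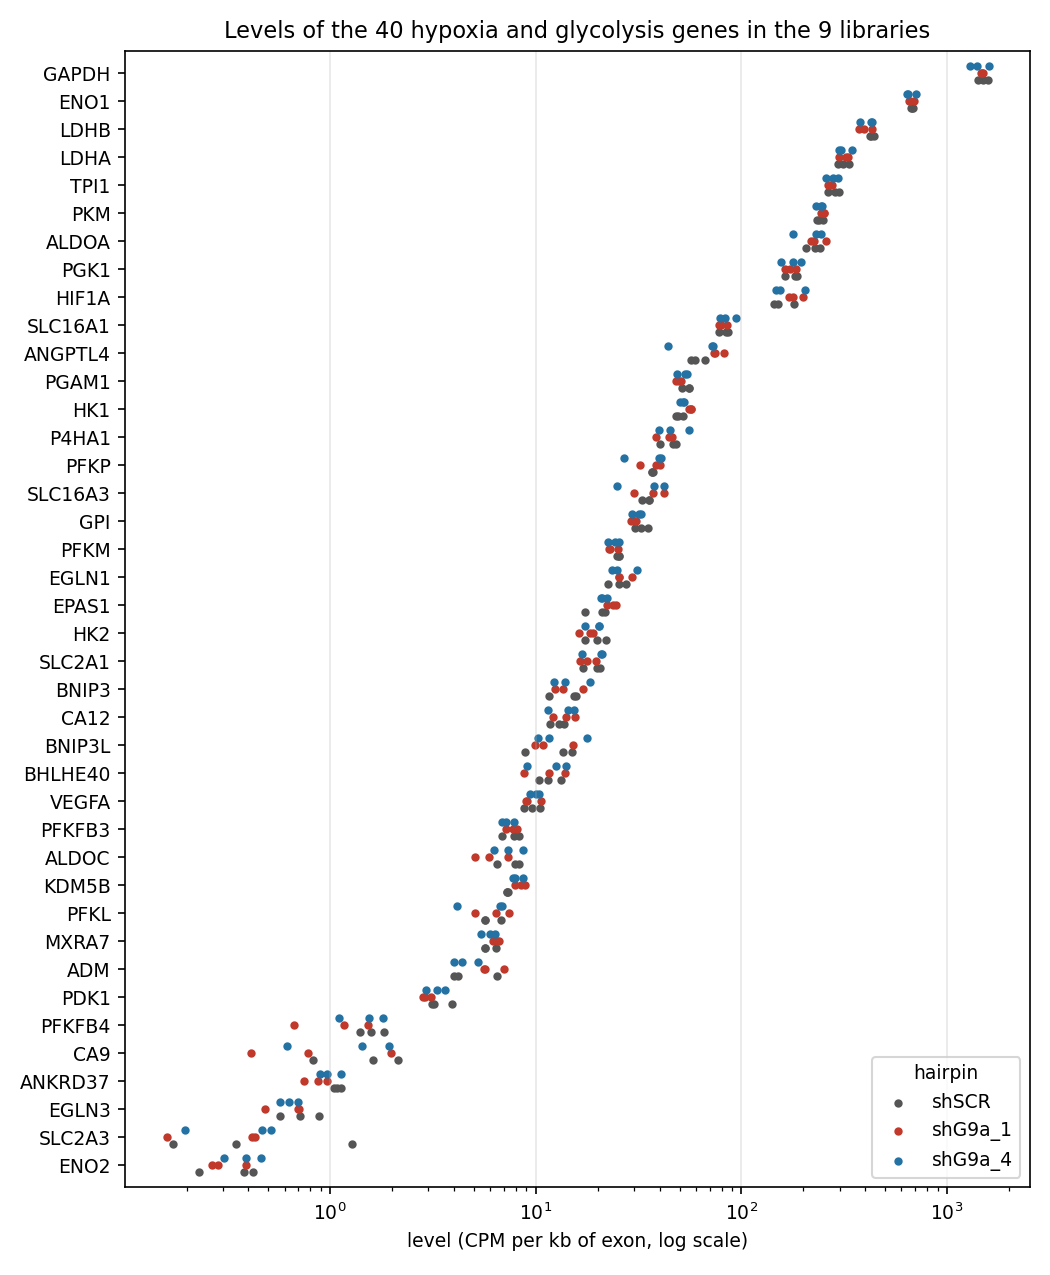
Levels of the 40 genes in the 9 libraries, in CPM per kb of exon on a log axis, with 1 point per library coloured by hairpin and genes ordered by their shSCR mean. GAPDH (mean 1499 in shSCR) and ENO2 (0.345) mark the ends, and for most genes the colours overlap.

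Together the 17 enzymes of upper and lower glycolysis took 1.63 to 1.79% of all reads in genes, and the 40 genes 1.97 to 2.10%. The share of the enzymes was 1.74 ± 0.0555% in shSCR, 1.70 ± 0.0270% in shG9a_1 and 1.69 ± 0.0671% in shG9a_4 (SD, n = 3 each). The ranges of the groups overlapped, with the lowest share in shG9a_4 replicate 2 and the highest in shSCR replicate 1. In bulk RNA, fewer cells that express a gene and less RNA per cell cannot be told apart.

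In shG9a_1 against shSCR, none of the 40 genes passed the threshold. Of all 18435 genes 7 (0.0380%) did, by edgeR's quasi-likelihood test with Benjamini-Hochberg adjustment. At an unadjusted p below 0.05 there were 3 of the 40 genes (7.50%), HK1, EPAS1 and KDM5B, against 1382 of all genes (7.50%). Of the 40, 15 had a positive and 25 a negative log2 fold change, with a median of −0.026 beside 0.00086 over all genes. The median SE was 0.11, beside 0.15 over all genes. The approximate 95% interval, from the SE and the normal distribution, lay within 0.5 of 0 on the log2 scale for 30 of the 40. Such intervals are narrower than edgeR's test implies, since few degrees of freedom are left. For ANGPTL4 the interval left out 0 (0.021 to 0.64) at an unadjusted edgeR p of 0.061.

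Against shSCR, shG9a_4 also left all 40 genes short of the threshold, beside 5 of all genes (0.0271%). KDM5B alone of the 40 (2.5%) had an unadjusted p below 0.05, beside 438 of all genes (2.38%). In this comparison 18 log2 fold changes were positive and 22 negative, with a median of −0.015 beside 0.0021 over all genes, and 34 intervals lay within 0.5 of 0. Both comparisons use the same 3 shSCR libraries, so the values of the hairpins are not independent of each other.

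**Figure D2:**
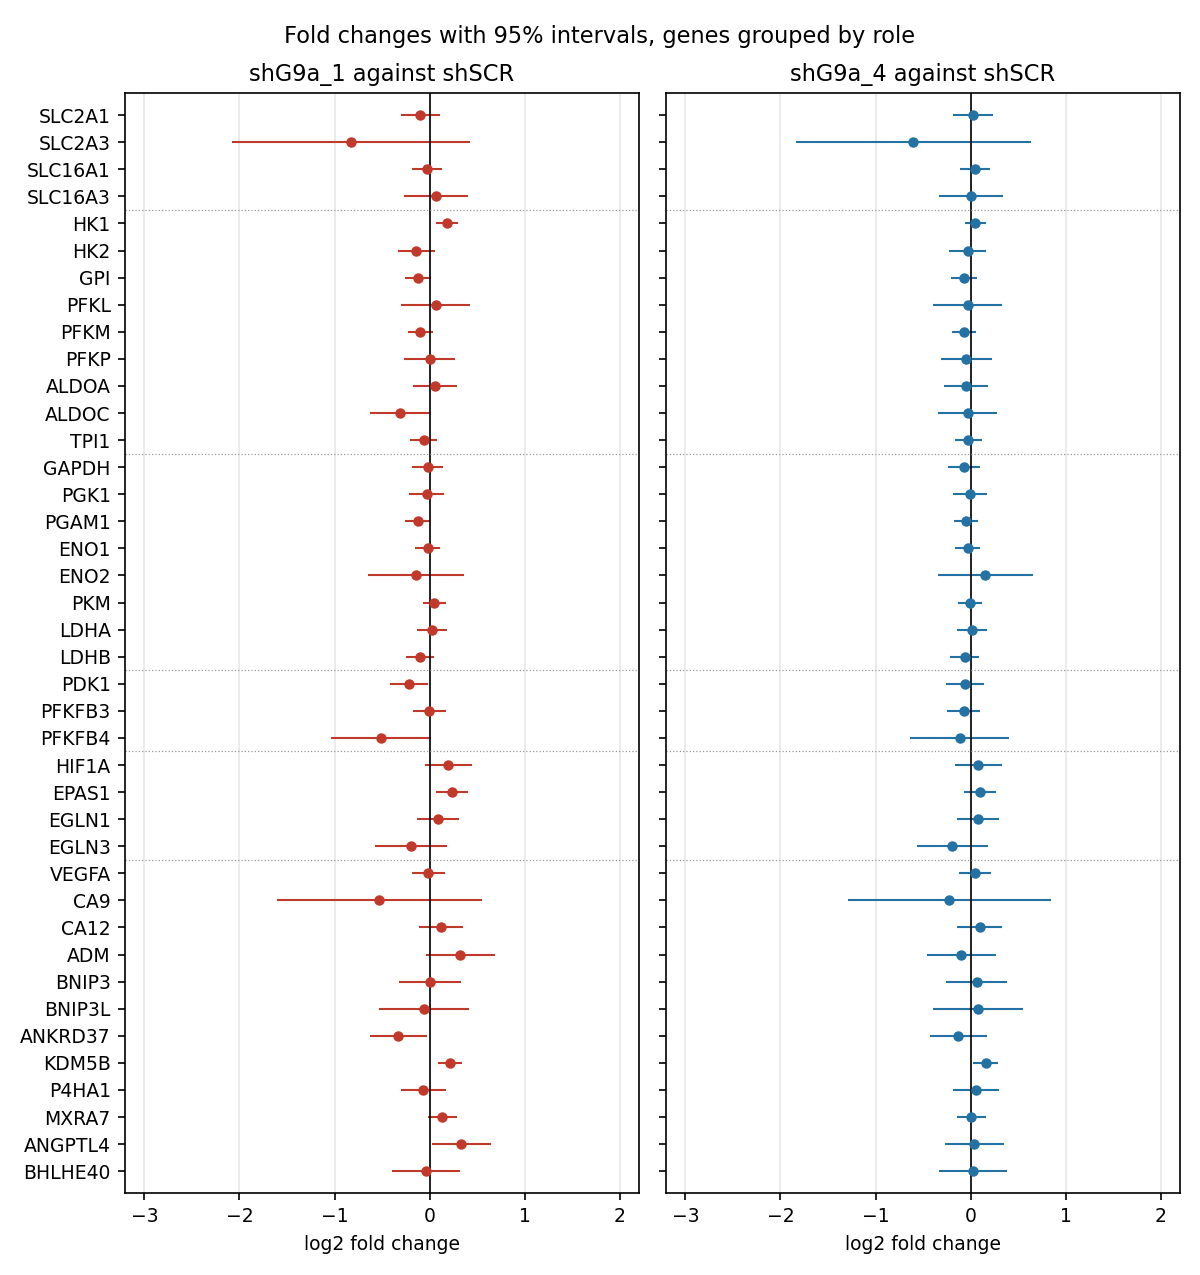
Log2 fold changes of the 40 genes against shSCR for each hairpin, grouped by role, with points for edgeR estimates. Lines are approximate 95% intervals from the SE and the normal distribution, narrower than the test implies. Intervals are widest for SLC2A3 (−2.07 to 0.42 in shG9a_1) and CA9 (−1.61 to 0.55), and most points lie within 0.2 of 0 (30 of 40 in shG9a_1 and 38 of 40 in shG9a_4).

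Among the transporters, SLC2A1 (GLUT1), the main glucose carrier of these cells, stood at 96.5, 79.7 and 94.1 CPM in shSCR, 83.4, 77.1 and 92.3 in shG9a_1, and 97.9, 79.0 and 98.6 in shG9a_4. The groups overlapped, with log2 fold changes of −0.097 (SE 0.11, interval −0.31 to 0.11) and 0.027 (interval −0.18 to 0.24). SLC2A3 (GLUT3) stood at 7.83, 2.13 and 1.06 CPM in shSCR, 2.66, 2.55 and 0.984 in shG9a_1, and 3.16, 2.87 and 1.21 in shG9a_4. Its single high library was shSCR replicate 1, and the other 8 lay at or below 3.16 CPM. The log2 fold changes of SLC2A3, the largest of the 40 in size, were −0.83 (SE 0.64, adjusted p = 0.828) and −0.60 (SE 0.63), and without shSCR replicate 1 they turned to 0.36 and 0.59. For the lactate carriers the log2 fold changes were −0.031 (SLC16A1) and 0.066 (SLC16A3) with shG9a_1, and 0.046 and 0.0058 with shG9a_4.

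No enzyme of glycolysis passed the threshold. Of the 9 upper enzymes 3 were higher and 6 lower in shG9a_1, with log2 fold changes from −0.31 (ALDOC, a brain-type aldolase) to 0.19 (HK1). In shG9a_4, 1 was higher and 8 lower, from −0.071 (GPI, glucose-6-phosphate isomerase) to 0.051 (HK1). The 8 lower enzymes ranged from −0.14 to 0.051 in shG9a_1 and from −0.070 to 0.15 in shG9a_4, with ENO2 at the low end of the first range and the high end of the second. ENO2 was read at 0.987 to 1.98 CPM in all libraries, at 1.81, 1.64 and 0.987 in shSCR, 1.22, 1.67 and 1.13 in shG9a_1, and 1.67, 1.98 and 1.30 in shG9a_4.

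HK1, the hexokinase of most tissues, stood at 309, 329 and 302 CPM in shSCR, 349, 359 and 359.7 in shG9a_1, and 329.7, 316 and 328 in shG9a_4. All shG9a_1 libraries lay above all others, 0.19 on the log2 scale (SE 0.058, edgeR adjusted p = 0.592), while shG9a_4 overlapped with shSCR at 0.051. HK2, the inducible hexokinase, was at −0.14 (SE 0.098) and −0.031 on the same scale. LDHA, which turns pyruvate into lactate, was at 2066, 1935 and 1823 CPM in shSCR, 2049, 2014 and 1859.9 in shG9a_1, and 1893, 2140.3 and 1851 in shG9a_4. Its groups overlapped throughout, with log2 fold changes of 0.024 (interval −0.13 to 0.18) and 0.015 (interval −0.14 to 0.17).

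Each of the 3 regulatory kinases had a negative log2 fold change with either hairpin, none past the threshold. PFKFB4, which sets the level of the activator of phosphofructokinase, was at 11.1, 9.65 and 8.53 CPM in shSCR, 4.08, 9.34 and 7.15 in shG9a_1, and 6.70, 11.0 and 9.42 in shG9a_4. Replicate 1 of both EHMT2 hairpins was lowest, and its groups overlapped, with log2 fold changes of −0.51 (SE 0.27, adjusted p = 0.719) and −0.11 (SE 0.27). PDK1, a kinase of pyruvate dehydrogenase, was at 58.0, 46.6 and 47.7 CPM in shSCR and 42.8, 46.2 and 41.9 in shG9a_1. These 3 shG9a_1 libraries lay below the 3 of shSCR, with a difference of −0.22 on the log2 scale (SE 0.10, adjusted p = 0.687). PDK1 had −0.058 in shG9a_4, and PFKFB3 had −0.0022 and −0.074.

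Of the oxygen-sensing genes, HIF1A stood at 779.7, 930.3 and 745 CPM in shSCR, 915, 1026 and 875 in shG9a_1, and 795, 1044 and 757 in shG9a_4. Within each replicate number both EHMT2 hairpins were above shSCR, by 0.14 to 0.23 on the log2 scale in shG9a_1 and by 0.022 to 0.17 in shG9a_4, while the groups as such overlapped. The fitted log2 fold changes were 0.20 (SE 0.13, adjusted p = 0.787) and 0.081 (SE 0.13). EPAS1 was at 126, 159 and 153 CPM in shSCR and 162, 174 and 179 in shG9a_1, which did not overlap, and at 151, 154 and 163 in shG9a_4. Its log2 fold changes were 0.24 (SE 0.086, adjusted p = 0.619) and 0.096. EGLN3, itself a HIF target, was at 6.47, 5.22 and 4.21 CPM in shSCR, 5.19, 5.14 and 3.53 in shG9a_1, and 4.62, 5.11 and 4.21 in shG9a_4. The groups of EGLN3 overlapped, with log2 fold changes of −0.20 (SE 0.19) and −0.19 (SE 0.19).

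The other hypoxia targets split evenly in shG9a_1, with 6 higher and 6 lower, and in shG9a_4 9 were higher and 3 lower. KDM5B, a demethylase of histone H3 lysine 4 that depends on oxygen and iron, was at 187, 187 and 189.9 CPM in shSCR, 230.2, 204 and 219.9 in shG9a_1, and 205, 224 and 201 in shG9a_4. All 6 knockdown libraries lay above all 3 shSCR libraries. The log2 fold changes of KDM5B were 0.21 (SE 0.066, interval 0.084 to 0.34, adjusted p = 0.592) and 0.16 (SE 0.066, interval 0.029 to 0.29, adjusted p = 1.00). It was the single member with separate groups for both hairpins, 1 of 40 (2.5%), beside 1.28% of all genes that were higher without overlap for both.

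CA9, among the most oxygen-responsive genes known, stood at 3.58, 2.69 and 1.38 CPM in shSCR, 0.685, 3.29 and 1.30 in shG9a_1, and 1.03, 3.21 and 2.38 in shG9a_4. Values as low as 0.685 and as high as 3.58 CPM both occurred at replicate 1, and the groups overlapped. The log2 fold changes of CA9 were −0.53 (SE 0.55, adjusted p = 0.883) and −0.22 (SE 0.55). ANKRD37, a HIF target of little known function, was at 2.92, 2.79 and 2.68 CPM in shSCR, 2.25, 2.49 and 1.93 in shG9a_1, and 2.30, 2.90 and 2.49 in shG9a_4. All 3 shG9a_1 libraries lay below shSCR for ANKRD37, −0.33 on the log2 scale (SE 0.15, adjusted p = 0.681), while in unstranded counts the difference was 0.10. ANGPTL4, a secreted inhibitor of lipoprotein lipase, was at 148, 165 and 142 CPM in shSCR, 185, 204 and 183 in shG9a_1, and 180.2, 109 and 179 in shG9a_4. The shG9a_1 libraries were above shSCR without overlap, at 0.33 (SE 0.16, adjusted p = 0.687), while shG9a_4 held both the higher values and, in replicate 2, the lowest of all 9 (0.041, SE 0.16).

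VEGFA, the growth factor for blood vessels, was at 152, 139 and 126 CPM in shSCR, 131, 153 and 129 in shG9a_1, and 136, 144 and 150.1 in shG9a_4. Its groups overlapped, with log2 fold changes of −0.012 (interval −0.18 to 0.16) and 0.045 (interval −0.13 to 0.22). ADM, a peptide hormone that widens vessels, stood at 10.9, 17.5 and 11.3 CPM in shSCR and at 15.3, 19.1 and 15.4 in shG9a_1, above shSCR within each replicate number. The log2 fold change of ADM was 0.32 (SE 0.18, adjusted p = 0.750) in shG9a_1 and −0.10 in shG9a_4.

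In all, 4 members were higher in shG9a_1 than in shSCR without overlap (HK1, EPAS1, KDM5B and ANGPTL4), 10.0% of the 40 beside 7.15% of all genes. Another 3 were lower without overlap (PGAM1, PDK1 and ANKRD37), 7.50% of the 40 beside 7.54% of all genes. In shG9a_4 the groups were separate for KDM5B alone, 2.5% beside 6.43% of all genes in either direction. These shares lay near those of all genes, or below.

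The hairpins themselves were compared, and neither any of the 40 genes nor any of all 18435 (0%) passed. HK1 and ADM had an unadjusted p below 0.05, at log2 differences of −0.13 and −0.42 of shG9a_4 from shG9a_1, 2 of 40 (5.00%) beside 4.09% of all genes. For the mean of both hairpins against shSCR, 0 of 40 passed beside 9 of all genes (0.0488%). KDM5B came first of the 40 there, with a log2 fold change of 0.19 (adjusted p = 0.939).

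Libraries of the same replicate number deviated together over all genes, so the fit was repeated with the number as a block. The count of called genes was then 143 (0.776%) in shG9a_1, 14 (0.0759%) in shG9a_4 and 34 (0.184%) for the mean of both, and 0 between the hairpins (0%). None of the 40 genes was among them. In shG9a_1 the members with an unadjusted p below 0.05 went from 3 to 11 of 40 (27.5%), beside 13.3% of all genes, and EPAS1 came closest, at an adjusted p of 0.126. Without shG9a_4 replicate 2 the blocked fit called EPAS1, KDM5B and ANGPTL4 in shG9a_1 (adjusted p = 0.0448, 0.0467 and 0.00675). These were 3 of 40 (7.50%) beside 549 of 18877 genes (2.91%). That fit also called ANGPTL4 for the mean of both (1 of 40, 2.5%, beside 0.440% of genes). Of the blocked fits that left out 1 library, it called the most genes in both comparisons. The library left out held the lowest ANGPTL4 of all 9 (109 CPM). With all 9 libraries the blocked fit put ANGPTL4 at 0.18 on the log2 scale for the mean of both (edgeR adjusted p = 0.748).

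A fit with the block and with offsets for GC content, chosen after the data were seen, called 1059 genes in shG9a_1 (5.74%) and 4 of the 40 (10.0%). These 4, KDM5B, EPAS1, HK1 and HIF1A, were all higher, with adjusted p-values in edgeR of 0.0145, 0.0178, 0.0231 and 0.0237. Over all settings tried their adjusted p ranged up to 1.00, and their log2 fold changes kept their sign, at 0.17 to 0.28, 0.14 to 0.31, 0.15 to 0.23 and 0.13 to 0.30. The same fit called 57 genes (0.309%) and no member in shG9a_4, 47 genes (0.255%) and no member between the hairpins, and 368 genes (2.00%) with KDM5B for the mean of both (adjusted p = 0.0264).

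Further settings called single members. With no filter on low counts SLC2A3 and ANGPTL4 passed in shG9a_1 (adjusted p = 0.00914 and 0.0264, 0.805% of genes called) and SLC2A3 for the mean of both (0.352%). Its log2 fold change without shSCR replicate 1 is positive, as given above. A blocked fit on the 2 groups alone called ANGPTL4 in shG9a_1 (adjusted p = 0.0315, 0.909% of genes), and DESeq2 with the block called ADM between the hairpins (adjusted p = 0.0362, 0.515% of genes). Over settings the adjusted p of each reached 1.00.

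The authors' deposited tables give a posterior probability of differential expression (PPDE) for each hairpin against shSCR, and hold 35 of the 40 genes. In the authors' deposited table for shG9a_1 the PPDE was above 0.95 for HK1 (0.976, fold 1.13) and KDM5B (0.997, fold 1.15), 2 of 35 beside 3.00% of its 10748 genes. ANGPTL4 followed at 0.874 (fold 1.25) in the authors' deposited table. In the authors' deposited table for shG9a_4, 0.614% of genes and no member passed 0.95, and KDM5B came highest of the 35 at 0.241 (fold 1.11).

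More of the genes passed the threshold for the replicate number than for a hairpin. Of the 40, 11 differed with the number at the threshold (27.5%), beside 1377 of all genes (7.47%). The test was edgeR's of both number terms, in a fit that also held the hairpin. The 40 were measured more closely than most genes, with a median SE of 0.11 beside 0.15 in shG9a_1 against shSCR. Of them 22 had at least 100 CPM in every library. The part of this in the larger share was not tested. BNIP3 and BNIP3L, which mark mitochondria for removal, HIF1A, EGLN1, ADM and P4HA1, a collagen prolyl hydroxylase, had their highest fitted level at replicate 2. SLC2A3, HK2 and CA12, a carbonic anhydrase, were lowest at replicate 3, BHLHE40, a transcriptional repressor of the circadian clock, was lowest at replicate 1, and SLC2A1 was lowest at replicate 2. P4HA1 falls outside the rule for named genes and is given since it passed.

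Upstream sequence was looked at for the 36 members held by RefSeq's promoter table (GRCh38.p14), which had 65 windows of 250 bases before a listed start. SLC16A1, SLC2A3, BNIP3L and VEGFA were not matched. The letters ACGTG, the core of the hypoxia response element bound by HIF, were present on either strand in 38.5% of the members' windows and in 18.5% of all 35116. GCGTG, its other form, was present in 32.3% and 32.2%. CACGTG, the E-box bound by MYC and by BHLHE40, was present in 13.8% and 6.34%, and holds ACGTG on both strands. A match is not a binding site, and windows of the same gene can overlap.

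Windows of 5 members are printed, and they were picked to hold matches. For each gene the listed start with the most matches that left 120 bases free of exons was taken. There the exon-free 120 bases with the most matched letters were chosen. BNIP3, HK2 and HIF1A differed with the replicate number, and ANGPTL4 and EPAS1 were higher in shG9a_1 without overlap. Each is 120 bases upstream of a listed start, free of GENCODE 29 exons, read on the strand of the gene, with ACGTG or GCGTG on either strand in capitals (CACGT and CACGC are the reverse forms). They lie at chr10:131982014-131982133 (minus strand) for BNIP3, chr2:74834976-74835095 (plus strand) for HK2, chr19:8363921-8364040 (plus strand) for ANGPTL4, chr14:61695309-61695428 (plus strand) for HIF1A and chr2:46297282-46297401 (plus strand) for EPAS1.
BNIP3: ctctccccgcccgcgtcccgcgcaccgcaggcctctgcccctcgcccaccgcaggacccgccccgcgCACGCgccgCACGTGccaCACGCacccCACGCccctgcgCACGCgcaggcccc
HK2: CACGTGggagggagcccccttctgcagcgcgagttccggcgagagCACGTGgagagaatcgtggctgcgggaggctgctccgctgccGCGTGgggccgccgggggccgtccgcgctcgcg
ANGPTL4: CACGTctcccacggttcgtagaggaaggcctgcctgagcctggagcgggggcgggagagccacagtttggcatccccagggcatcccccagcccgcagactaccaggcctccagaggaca
HIF1A: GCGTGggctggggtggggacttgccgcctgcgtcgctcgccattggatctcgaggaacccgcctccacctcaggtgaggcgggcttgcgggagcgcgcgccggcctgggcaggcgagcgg
EPAS1: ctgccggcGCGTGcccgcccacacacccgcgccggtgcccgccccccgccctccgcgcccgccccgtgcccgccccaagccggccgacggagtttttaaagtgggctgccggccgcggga
The BNIP3 window held 6 such matches and that of HK2 5, beside 1 each in ANGPTL4, HIF1A and EPAS1. Each CACGTG counts as 2 matches, 1 per strand, so BNIP3 and HK2 show fewer marked stretches than matches. A window of CA9 picked in the same way held 0, with 1 match in its 250 bases, and is not printed. These counts come from windows picked for matches and do not compare the genes. BNIP3 held the E-box CACGTG in its 250 bases, and HK2 held 2 of them.

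BNIP3 stood at 81.8, 83.6 and 61.8 CPM in replicates 1 to 3 of shSCR, 72.4, 89.9 and 65.9 in shG9a_1, and 73.9, 98.0 and 65.4 in shG9a_4. In every hairpin replicate 2 was highest and replicate 3 lowest (fitted log2 difference of 3 from 2 −0.49, adjusted p = 0.0058). BNIP3L stood at 64.5, 58.4 and 38.2, then 46.6, 65.6 and 42.5, then 50.0, 76.3 and 44.0 CPM in the same order. Replicate 3 was lowest in every hairpin, at −0.68 from replicate 2 (adjusted p = 0.0158), while the highest was replicate 1 in shSCR and replicate 2 in both others. For HIF1A, whose values are above, replicate 2 was highest and 3 lowest in all hairpins, at −0.34 (adjusted p = 0.0174).

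EGLN1 stood at 183, 200.4 and 163 CPM in shSCR, 184, 212 and 185 in shG9a_1, and 179.7, 226 and 171 in shG9a_4, each time highest in replicate 2 (0.22 from replicate 1, adjusted p = 0.0244). ADM was also highest in replicate 2 of every hairpin, with shG9a_4 at 11.9, 14.3 and 10.9 CPM (0.42 from replicate 1, adjusted p = 0.0236). P4HA1 stood at 149, 143 and 124 CPM in shSCR, 137, 142 and 119 in shG9a_1, and 138, 172 and 123 in shG9a_4. Its lowest library was replicate 3 in every hairpin (−0.32 from replicate 2, adjusted p = 0.0393).

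BHLHE40 stood at 39.6, 50.8 and 43.7 CPM in shSCR, 33.6, 53.3 and 44.3 in shG9a_1, and 34.9, 48.0 and 53.8 in shG9a_4. Replicate 1 was lowest in every hairpin, with replicate 2 higher by 0.49 and replicate 3 by 0.39 on the log2 scale (adjusted p = 0.0174). SLC2A3 was highest in replicate 1 and lowest in replicate 3 of every hairpin, with a log2 difference of −1.98 between these (adjusted p = 0.0106). The gap was widest in shSCR, from 7.83 to 1.06 CPM, beside 2.66 to 0.984 in shG9a_1 and 3.16 to 1.21 in shG9a_4. HK2, at 133, 119.8 and 105 CPM in shSCR, 115, 112 and 98.3 in shG9a_1, and 123, 122 and 105 in shG9a_4, was lowest in replicate 3 of every hairpin (−0.26 from replicate 1, adjusted p = 0.0306). CA12, at 101, 94.7 and 85.6 CPM in shSCR, 114, 102 and 88.9 in shG9a_1, and 104, 112 and 83.5 in shG9a_4, was so too (−0.30, adjusted p = 0.0296). SLC2A1 went the other way, with replicate 2 lowest in every hairpin (−0.23 from replicate 1, adjusted p = 0.0294).

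**Figure D3:**
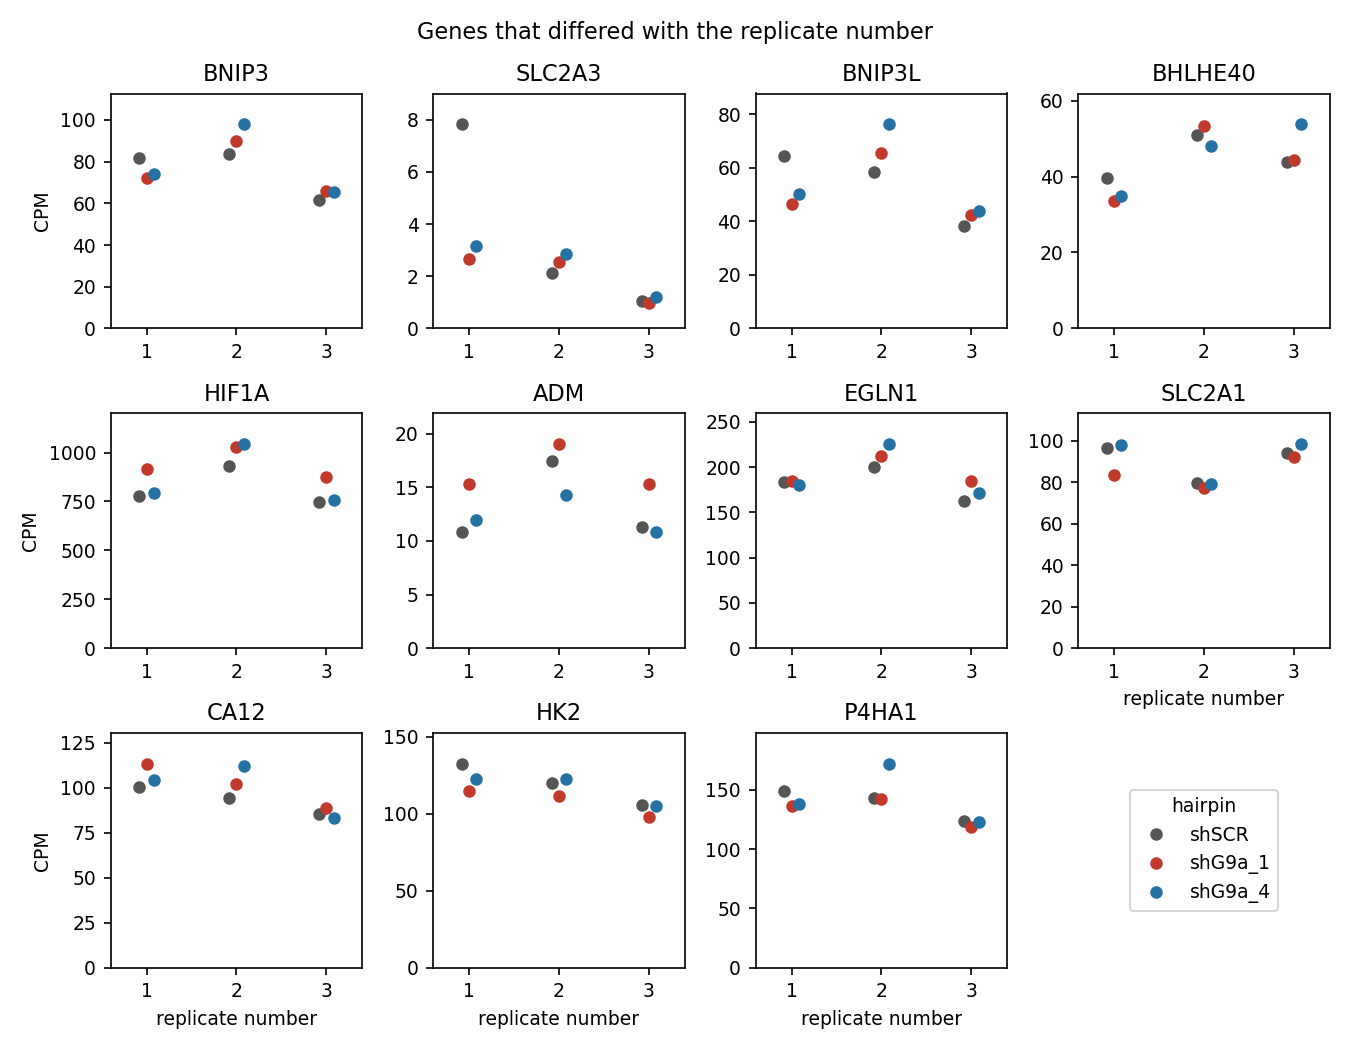
CPM of the 11 genes that differed with the replicate number, by number and coloured by hairpin, with 1 point per library and axes that start at 0. BNIP3 is highest at replicate 2 and lowest at replicate 3 for each hairpin, while SLC2A1 is lowest at replicate 2.

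Replicate 3 was lowest in all 3 hairpins for 15 of the 40 genes (37.5%), beside 13.9% of all genes. The 15 were SLC2A3, SLC16A1, HK2, TPI1, PGK1, PGAM1, ENO2, LDHA, HIF1A, EGLN3, CA12, BNIP3, BNIP3L, P4HA1 and MXRA7. Replicate 3 was highest in all 3 hairpins for a single member, PFKP, the platelet-type phosphofructokinase (2.5%), beside 13.0% of all genes. DESeq2 called the same 11 genes with the number (1629 of all genes, 8.84%), while no filter called 17 (8.03% of genes) and GC offsets, added after the data were seen, 17 (15.7% of genes).

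Other features of the libraries went with the number. The replicate 3 libraries were the shallowest, at 53065611 to 54477100 reads in genes, and had 3.67 to 4.34% unmapped reads, beside 2.75 to 3.21% in the other 6. Their summed level of 8 general epithelial markers was 1098 to 1214 CPM, beside 841 to 948 at replicate 1 and 737 to 878 at replicate 2, and CDH1, EPCAM, KRT8, DSP and JUP passed the threshold. The summed level of 10 basal markers was 6613 to 7773 CPM at replicate 3, beside 5221 to 7098 and 4746 to 5726, with 7 past the threshold. The 8 fibroblast markers, of which DCN and LUM passed, summed to 140.1 to 197 CPM at replicate 3, beside 280.2 to 422 and 337 to 420.4. The part of these in the differences of the 11 genes was not tested.

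Single libraries bore on the count of 11. It was 1 without shSCR replicate 3, 2 without shG9a_1 replicate 3, 2 without shG9a_4 replicate 3, 5 without shSCR replicate 2, 6 without shG9a_4 replicate 1 and 7 without shG9a_1 replicate 1, and 9 to 12 without each of the others. Leaving out a library also leaves its number with a pair of libraries.

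**Figure D4:**
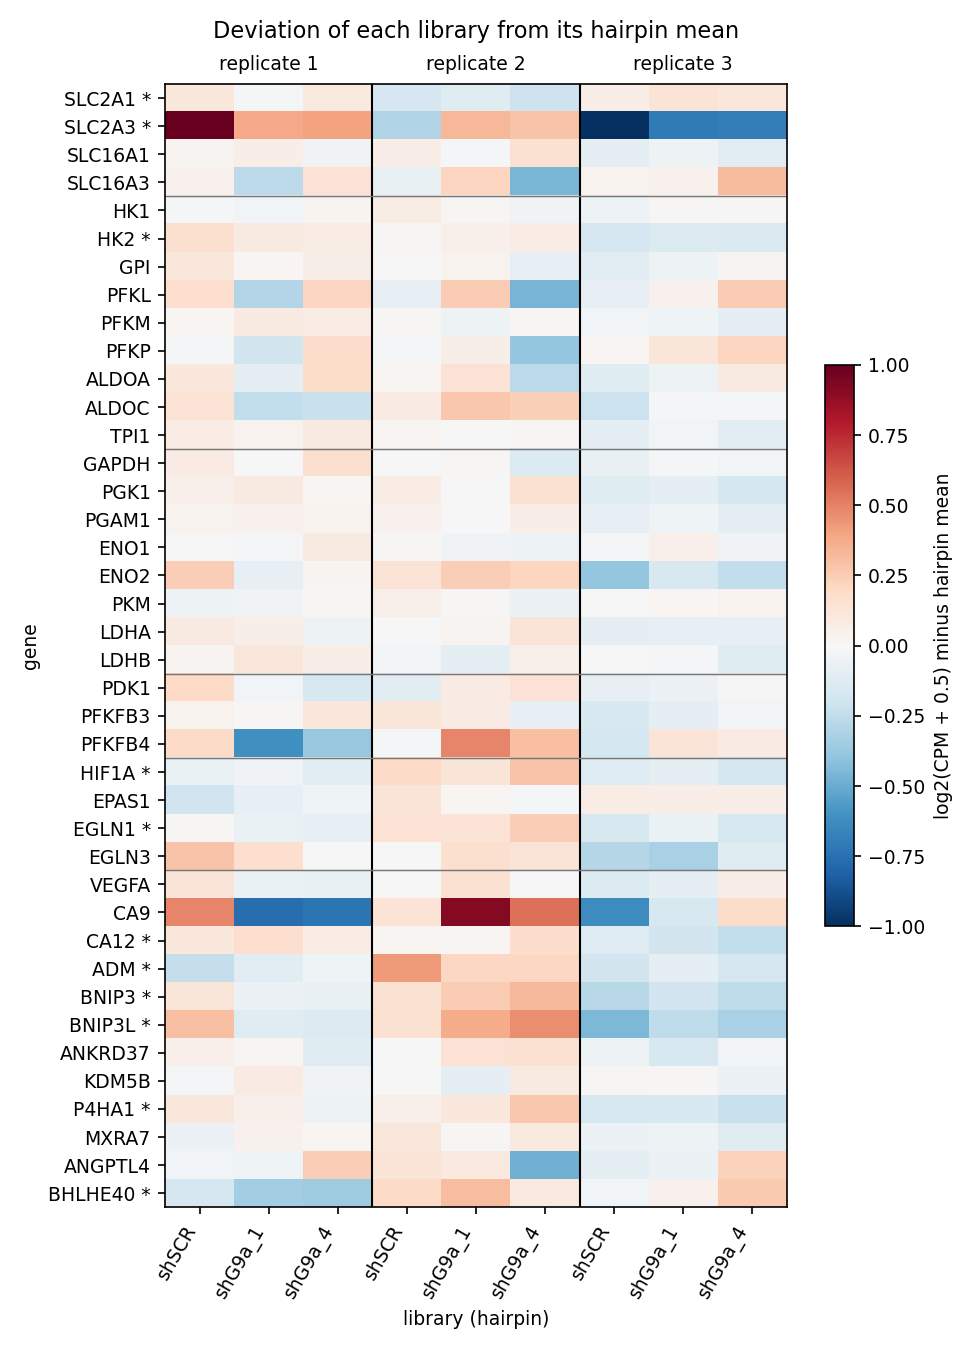
Deviation of each library from the mean of its hairpin, in log2(CPM + 0.5), for the 40 genes by role, with libraries ordered by replicate number and genes past the threshold for the number marked with a star. Columns of replicate 3 are mostly below 0 (blue), and BNIP3, BNIP3L, HIF1A, EGLN1 and P4HA1 are above 0 (red) in all 3 columns of replicate 2.

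Within replicate numbers the sign of the hairpin differences changed. At replicate 1, 28 of the 40 genes were lower in shG9a_1 than in shSCR (median log2 difference −0.12, with 50.3% of all genes lower), at replicate 2 18 were (median 0.023), and at replicate 3 14 (median 0.033). In shG9a_4 the counts of lower genes were 24, 20 and 13, with medians of −0.024, 0.0013 and 0.058. Of all genes, 48.7% and 51.4% were lower at replicates 2 and 3 of shG9a_1, and 50.4%, 49.35% and 49.6% at replicates 1 to 3 of shG9a_4. The genes furthest apart at replicate 1 were CA9 (log2 difference −1.78 in shG9a_1 and −1.42 in shG9a_4), SLC2A3 (−1.40 and −1.19) and PFKFB4 (−1.35 and −0.69). At replicate 2 the same genes stood at 0.25 and 0.22 for CA9, 0.21 and 0.36 for SLC2A3, and −0.045 and 0.18 for PFKFB4. KDM5B was higher in all 6 such pairs, by 0.083 to 0.30, and so was HIF1A, by 0.022 to 0.23, 2 of 40 (5.00%) beside 6.10% of all genes. PGAM1, a phosphoglycerate mutase, was lower in all 6 (log2 differences of −0.17 to −0.028), and so was PFKM, the muscle-type phosphofructokinase (−0.16 to −0.016), 5.00% beside 5.67% of all genes.

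The GC content of a transcript went with part of the spread between libraries. Over 10338 genes the deviation of shG9a_4 replicate 2 from the other libraries of its hairpin correlated with the GC content of the longest transcript at r = −0.70, and over the 40 genes at −0.57. The same values were 0.57 and 0.58 for shG9a_4 replicate 3 and −0.50 and −0.46 for shG9a_1 replicate 1. These describe genes within libraries that share their preparation and depth, not replicates. Members ranged from 36.4% GC (HIF1A) to 64.1% (PFKL), with a median of 52.7%, above the 46.9% of all genes compared. Of the 20 members above that median, 12 were lowest of their hairpin in shG9a_4 replicate 2 and 6 highest, while of the 20 others 0 were lowest and 14 highest there. PFKL stood at 37.1 CPM in that library beside 59.7 and 61.3 in the others of its hairpin, and CA9, of 60.1% GC, went the other way, at 3.21 beside 1.03 and 2.38.

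**Figure D5:**
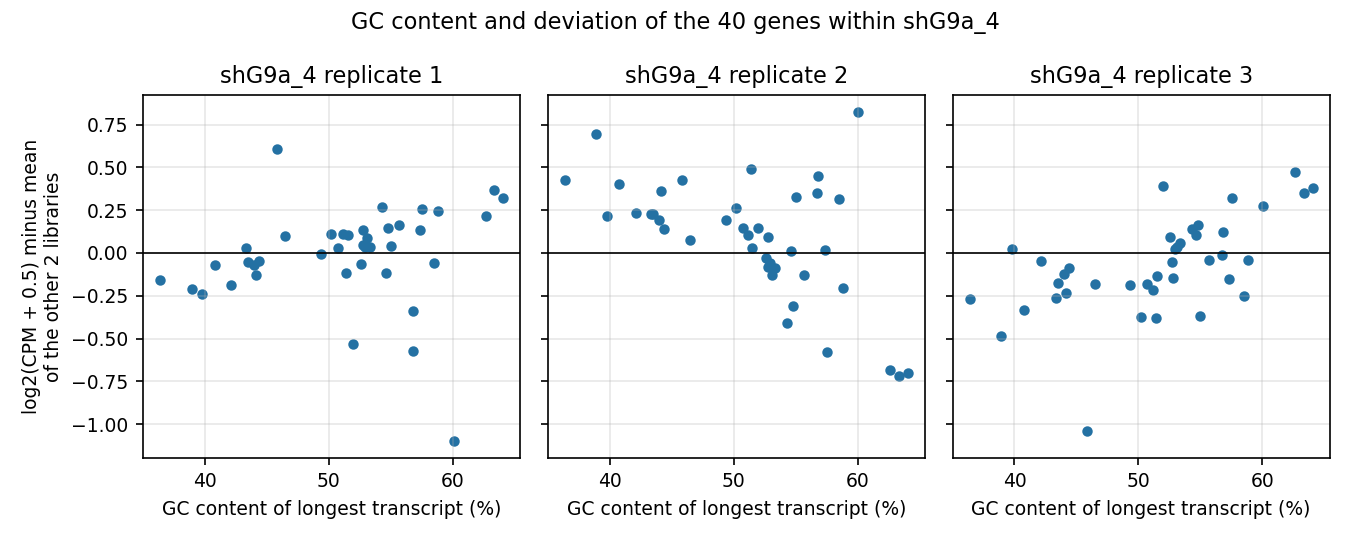
Deviation of the 40 genes in each shG9a_4 library from the mean of the other 2, in log2(CPM + 0.5), against the GC content of the longest transcript in percent, with 1 point per gene. In replicate 2 genes above 60% GC, CA9 aside, lie lowest, and in replicate 3 the slope is the opposite (r = −0.57 and 0.58 over the 40 genes).

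Ratios of related genes within a library do not depend on scaling, and 13 were compared between the 6 knockdown and 3 shSCR libraries by exact two-sided permutation tests, whose smallest possible p is 0.0238. With 13 ratios, 1 fully separate ratio would have an adjusted p of 0.31, and 7 would have to reach the smallest p for any to pass, so the lack of a call says little. The smallest p was 0.143 (adjusted 0.619), for LDHA to LDHB, HK2 to HK1 and EGLN3 to EGLN1. EGLN3 to EGLN1 was lower than in shSCR in all 6 pairs of the same number, by log2 differences of −0.46 to −0.071. It was the single ratio of the 13 to go 1 way in all 6, and had p = 0.0741 (adjusted 0.642) when an exact permutation test kept libraries within their number, where the smallest possible p is 0.037. LDHA to LDHB, the balance of the subunits of lactate dehydrogenase, was 0.727 per kb in shSCR and 0.687 to 0.866 over all libraries. Before division by length LDHA had more reads than LDHB, with a mean log2 ratio of 0.597 in shSCR. HK2 to HK1 was 0.394 per kb in shSCR (0.284 to 0.446), and SLC2A3 to SLC2A1 was 0.0224 per kb (0.00825 to 0.0623). CA12 exceeded CA9 8.98-fold per kb in shSCR, and 6.41-fold to 37.4-fold over the libraries. CA9 is read at no more than 3.58 CPM in any library.

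Other genes of the pathways, listed by function, gave a like picture for the hairpins. None of 14 tested HIF regulators, 30 other hypoxia-induced genes, 14 other enzymes of glycolysis and gluconeogenesis, 13 genes of pyruvate entry into mitochondria and 7 of the pentose phosphate pathway passed the threshold with either hairpin. Of the 30 hypoxia-induced genes 19 were higher and 11 lower in shG9a_1 (median log2 fold change 0.072) and 17 and 13 in shG9a_4 (median 0.011). Among them PPFIA4 had −0.84 in shG9a_1 (adjusted p = 0.757) on levels of 0.910 to 4.49 CPM. ARNT, the partner of the HIF alpha subunits, and VHL, chosen for their role, were at 0.13 and −0.043 with shG9a_1 and at 0.061 and −0.010 with shG9a_4.

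With the replicate block, 2 of the 77 pathway genes tested (PGM1 stands in 2 lists) rose in shG9a_1, 2.60% beside 0.776% of all genes. HKDC1, a hexokinase-like protein, was at 1.39, 1.88 and 2.42 CPM in shSCR and 3.88, 2.72 and 4.58 in shG9a_1, which did not overlap (log2 fold change 0.97, adjusted p = 0.461 without and 0.0409 with the block). PDK4, a relative of PDK1 induced by fasting, was at 24.9, 17.1 and 17.2 CPM in shSCR and 38.9, 26.7 and 23.2 in shG9a_1, higher at each number (0.59, adjusted p = 0.633 and 0.0162). In shG9a_4 their log2 fold changes were 0.11 and 0.19. The block with GC offsets called 6 of the 77 (7.79%) beside 5.74% of all genes. They held 4 of the 30 hypoxia-induced genes (13.3%), among them KDM3A, a histone demethylase, and MXI1, which competes with MYC for its partner MAX, both lower (log2 fold changes of −0.27 and −0.26, adjusted p = 0.0443 and 0.0389). With the number itself 13 of the 77 differed (16.9%), beside 7.47% of all genes. The hypoxia-induced list held 7 of these (LOX, LOXL2, KDM3A, MXI1, STC2, KDELR3 and TMEM45A), 7 of 30 tested (23.3%). LOX, an enzyme that links collagen, was at 39.4, 33.3 and 21.9 CPM in shSCR, 35.5, 40.9 and 24.7 in shG9a_1, and 30.7, 52.2 and 24.3 in shG9a_4, lowest in replicate 3 each time (adjusted p = 0.0115).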

How the data were processed

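RNA of 9 cultures was sequenced after removal of ribosomal RNA, and per the labels the libraries were stranded and read from both ends over 75 bases. The authors deposited raw read counts per gene ID for each library, laid out as by STAR. The submitters' processing notes name, without roles, the builds hg19 and GRCh37 and the tools R 3.3.1, DESeq, edgeR 3.14.0 and STAR 2.5.2a. No annotation release was named. The authors also deposited, per gene symbol, a posterior probability score (PPDE) and a linear fold for each hairpin, by a tool they do not name. Reverse-strand counts were used, since they held 94.7 to 95.1% of stranded reads. Rows that name no gene stayed out: reads outside genes (12.2 to 15.4%), ambiguous (2.49 to 2.68%), multimapped (4.57 to 5.49%) and unmapped (2.75 to 4.34%).

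Counts were scaled by TMM, filtered with filterByExpr and tested with edgeR 4.0.16 (R 4.3.3) by quasi-likelihood, with all 3 groups in the fit, 6 residual degrees of freedom and Benjamini-Hochberg adjustment over 18435 genes. The scripts were tested on simulated data. A gene was called at an adjusted p below 0.05. Libraries with the same replicate number were taken as paired, because all 9 such correlations of their deviations exceeded 0.1 (0.167 to 0.641, mean 0.409). The 18 others had a mean of −0.204, which is no separate evidence. Deviations within a hairpin sum to 0, so a positive mean for the same number forces a negative mean for the others. No label ties a number to a day or batch. With the number as a block, 4 residual degrees of freedom remained. Other settings were RLE scaling, limma 3.58.1 voom, DESeq2 1.42.0, no filter, unstranded counts, only the groups compared, GC offsets and leaving out each library. CPM per kb and GC content used GENCODE 29 models, of GRCh38, a build other than the files'. The length was that of all annotated exons of a gene merged, which can exceed that of its main transcript, so levels per kb of different genes compare only roughly. Reads of GAPDH, PGK1, PGAM1, LDHA, LDHB, ENO1, PKM, TPI1 and ALDOA may be split with near-identical copies, which makes their levels uncertain. The 40 genes, and the other lists, were chosen with earlier results of these data known. Values in every library were given for members called in a hairpin comparison with or without the block, the 5 largest log2 fold changes of a comparison, members apart in the same direction for both hairpins, the 10 smallest p-values for the replicate number, and HIF1A, SLC2A1, LDHA, CA9 and VEGFA. HK1, EPAS1, ADM, PDK1, PFKL, PFKM, PGAM1, P4HA1 and MXRA7 were named after their values were seen.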

Additional observations from a re-analysis of the deposited data

How the results depend on the processing

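The replicate numbers pair the libraries, and with the replicate block no member was called in any comparison, while the genes called in shG9a_1 went from 7 to 143, in shG9a_4 from 5 to 14 and for the mean of both hairpins from 9 to 34. Added after the data were seen, the block with GC offsets called 4 members and 1059 genes in shG9a_1, 57 genes in shG9a_4, 47 between the hairpins, and 1 member and 368 genes for the mean. DESeq2 with the block, also added, called 440, 46 and 95 genes with 1 member in the last, and 189 for the mean, and the blocked fit on the groups compared 163 genes with 1 member, 18 and 6. The added GC offsets without the block called 13, 11, 1 and 16 genes in the same order, DESeq2 without it 79, 22, 6 and 44, and no filter 288 genes with 2 members, 49, 106, and 126 with 1 member. In shG9a_4 the unstranded counts called 1 gene and the fit on the groups compared 0. For the replicate number, no filter called 17 members of 2874 genes and GC offsets 17 of 2898. Leaving out 1 library at a time gave 0 to 10 genes in shG9a_1 (4 to 549 with the block, with 0 to 3 members), 0 to 7 in shG9a_4 (1 to 26), 0 between the hairpins (0 to 17), 0 to 11 for the mean (6 to 83, with 0 to 1 member), and 1 to 12 members of 435 to 2109 genes for the number. The log2 fold changes that turned were small or on few reads. They ran over single libraries left out, and then the same with the block, from −1.26 to 0.36 and −1.02 to 0.11 (SLC2A3, shG9a_1), −1.04 to 0.59 and −0.80 to 0.34 (SLC2A3, shG9a_4), −1.37 to −0.15 and −1.23 to 0.12 (CA9, shG9a_1), and −0.62 to 0.13 and −0.79 to 0.54 (CA9, shG9a_4). In shG9a_1 they ran from −0.019 to 0.071 and −0.012 to 0.069 (LDHA), and −0.093 to 0.056 and −0.093 to 0.090 (VEGFA). In shG9a_4 they ran from −0.067 to 0.32 (ENO2), −0.083 to 0.17 (HIF1A), −0.061 to 0.12 and −0.012 to 0.055 (SLC2A1), −0.059 to 0.062 and −0.050 to 0.074 (LDHA), and −0.029 to 0.11 and −0.039 to 0.15 (VEGFA). ANKRD37 in shG9a_1 was at 0.10 in unstranded counts. The cause of these changes was not tested. With 3 libraries a group, and genes such as SLC2A3, CA9, ENO2 and ANKRD37 at a few CPM, changes of the size of their standard errors could not be told from 0.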
